A study of Mus musculus with 6 samples.

Results

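Cells that carry many motile cilia, such as the ependymal cells lining the brain ventricles beside the habenula, switch on a small set of transcription regulators while they form. The 9 genes described here are grouped as regulators of this programme: Foxj1, Rfx1, Rfx2, Rfx3, Rfx4, Mcidas, Gmnc, Trp73 and Ccno. Ccno encodes a cyclin rather than a transcription factor, and not all 9 are limited to such cells. They were chosen by name and taken from the deposited table by symbol. All 9 were found, among 55359 genes in the table. They were read from RNA-seq libraries made with total RNA; the tissue was habenula, a small nucleus of the epithalamus, and the mice were C57BL/6 and 2 months old. There were 3 wild-type (WT) libraries and 3 libraries labelled Tet2 cKO, a conditional knockout of the 5-methylcytosine dioxygenase gene Tet2. Both groups share the strain, tissue and age. The sources used here give neither the Cre driver nor the exons removed, and do not say if libraries came from different mice. The p-values therefore measure only the spread between these libraries, which may be technical.

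Geminin coiled-coil proteins stand at the top of this programme. GEMC1 (gene Gmnc) and multicilin (gene Mcidas) form complexes with E2F4 or E2F5 and DP1, and these complexes activate Trp73, Foxj1 and Ccno. Notch signalling holds the programme back. FOXJ1 and the RFX proteins then bind the promoters of axoneme and ciliary transport genes, and cyclin O (gene Ccno) acts in the mass production of basal bodies. In the brain these genes are known from ependymal cells and from the choroid plexus epithelium, whose cells also carry several cilia, while Rfx4 is also expressed in astrocytes and neural progenitors.

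Library totals lay between 16089676 and 17917987 counts. The whole-gene level of Tet2 did not fall with the label: it lay between 3.45 and 3.71 FPKM (fragments per kilobase of exon, scaled to library size) in WT and between 3.96 and 4.47 FPKM under the Tet2 cKO label. Reads from undeleted exons stay in such a count, so it does not settle the label, and directions given here go by that label. All 8 habenula neuron markers were present in every library. WT replicate 3 was the lowest in their sum and in each of them but Tac1. The summed level of these markers, among them Gpr151 and Tac2, was 117.7 FPKM there and between 148.7 and 235.8 FPKM in the other libraries. This library was also the highest in the share of mitochondrial counts, at 7.66% against 5.43% to 6.44% in the others, with Tet2 cKO replicate 3 the lowest. Values that move by over 1.5 times without WT replicate 3 are given with and without it.

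Ccno and Mcidas are neighbours on chromosome 13, in the same orientation with 3067 bases between them. Both windows hold the sequence GTTGCC, an arm of the X-box bound by RFX proteins, and so does that of Rfx2. RefSeq windows of 300 bases (250 before to 50 after a start, build GRCm38.p6) were at hand for 8 of the 9 genes, with 11 starts. On either strand, GTTGCC was found in 6 of these 11 windows (those of Ccno, Mcidas, Rfx1, Rfx2, Rfx3 and 1 start of Trp73), and in 12.5% of all 32851 windows of that length. The forkhead core TGTTTAC was found in none of the 11 and in 3.65% of all windows. A match is a description of the sequence, not evidence of binding. The sequence before the start is shown for Ccno and Rfx2, in full up to the first annotated transcript, for Mcidas as the bases around the match, and for Gmnc, which showed the lowest unadjusted p of the weakly expressed members and holds no match. Capitals mark GTTGCC. It starts at position -219 from the RefSeq start in Ccno, at -195 in Mcidas and at -116 in Rfx2. The matches of Rfx1, Trp73 and Rfx3 lie after the start instead, at positions 1, 2 and 31.
Ccno, chr13:112987552-112987801, plus strand: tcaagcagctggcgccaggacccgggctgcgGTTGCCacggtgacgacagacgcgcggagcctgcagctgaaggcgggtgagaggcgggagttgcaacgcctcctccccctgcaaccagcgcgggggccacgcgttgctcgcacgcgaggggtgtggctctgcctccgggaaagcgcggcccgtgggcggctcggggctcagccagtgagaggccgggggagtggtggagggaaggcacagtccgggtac
Mcidas, chr13:112993661-112993690, plus strand: gggggaagccagGTTGCCaggttggttaac
Rfx2, chr17:56831014-56831258, minus strand: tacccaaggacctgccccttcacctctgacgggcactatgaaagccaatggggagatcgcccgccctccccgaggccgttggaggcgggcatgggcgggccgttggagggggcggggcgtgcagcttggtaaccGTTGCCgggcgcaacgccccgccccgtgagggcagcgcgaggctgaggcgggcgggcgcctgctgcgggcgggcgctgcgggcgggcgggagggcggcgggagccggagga
Gmnc, chr16:26991676-26991902, minus strand: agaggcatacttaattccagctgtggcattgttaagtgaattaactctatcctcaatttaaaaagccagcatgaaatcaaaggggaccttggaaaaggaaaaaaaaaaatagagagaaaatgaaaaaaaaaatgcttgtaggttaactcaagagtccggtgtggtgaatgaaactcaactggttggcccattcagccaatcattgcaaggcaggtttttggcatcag
These windows differ in composition. Over the 250 bases before the start, G and C made up 72.4% in Ccno, 73.6% in Mcidas and 76.0% in Rfx2, with 26, 27 and 30 CpG pairs. The upstream start of Gmnc had 39.2% and 1 CpG pair, and its other start 51.6% and 11.

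By GENCODE M21 on GRCm38, Ccno spans 112987802 to 112990777 and Mcidas 112993845 to 113000394, both on the plus strand of chromosome 13. The RFX genes are on 4 chromosomes: Rfx1 on chromosome 8 (84066834 to 84096992, plus), Rfx2 on chromosome 17 (56775897 to 56831013, minus), Rfx3 on chromosome 19 (27761721 to 28011166, minus) and Rfx4 on chromosome 10 (84756062 to 84906538, plus). Trp73 is on chromosome 4 (154056253 to 154140208, minus).

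In WT habenula the 9 genes spanned from 7.56 to 0.08 FPKM. Foxj1 was the highest at 7.56 ± 0.481 FPKM (SD, n = 3), followed by Rfx1 at 5.14 ± 0.296, Rfx4 at 4.32 ± 0.400 and Rfx3 at 2.91 ± 0.477 FPKM. The WT ranges of these 4 genes did not overlap from any of them to the next. The other genes stood under 1 FPKM: Trp73 at 0.813 ± 0.172, Rfx2 at 0.650 ± 0.193, Gmnc at 0.497 ± 0.155, Ccno at 0.160 ± 0.0173 and Mcidas at 0.0800 ± 0.0529 FPKM. Ranges of Trp73 and Rfx2 overlapped, as did those of Rfx2 and Gmnc, so the order among these is not resolved. The initiating genes Mcidas and Gmnc were near the lower end: 3.05% and 22.8% of the 22879 genes with at least 10 counts lay at or below them.

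**Figure D1:**
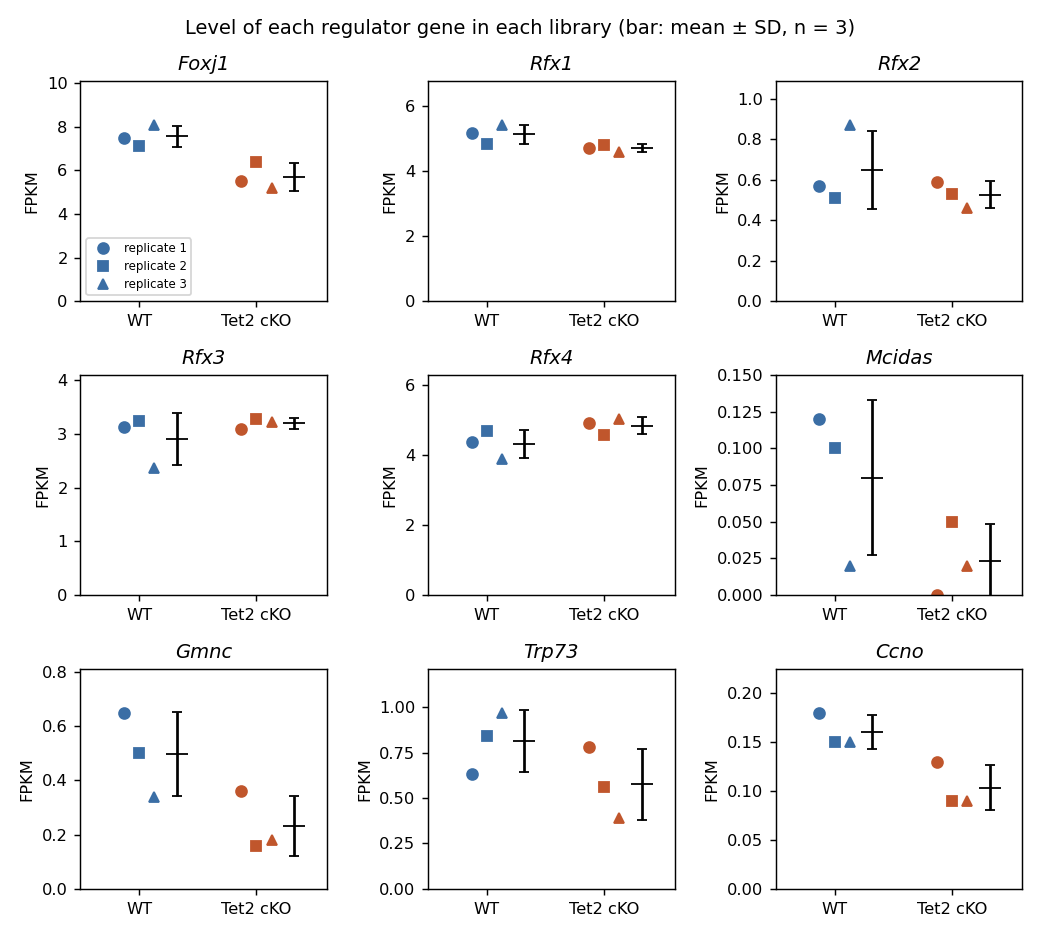
Level of each of the 9 genes in FPKM (vertical axes, each from 0) in the 3 WT (blue) and 3 Tet2 cKO (orange) libraries; point shapes give the replicate number and black bars the mean ± SD (the lower bar of Mcidas under the label is cut at 0). Foxj1 lies between 7.13 and 8.08 FPKM in WT libraries, against between 5.18 and 6.40 FPKM with the label, while Rfx3 and Rfx4 overlap between groups.

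The design asks if the level of these regulators differs where Tet2 is deleted. None of the 9 passed the test. By sign, 7 were lower (Foxj1, Rfx1, Rfx2, Mcidas, Gmnc, Trp73 and Ccno) and 2 higher (Rfx3 and Rfx4). The median log2 difference of the 9 was -0.41, which is the value of Foxj1. Over all genes tested in the 2 fits the medians were -0.0021 and -0.0037. The 4 genes averaging 1 FPKM or more (Foxj1, Rfx1, Rfx3, Rfx4) were tested by edgeR's quasi-likelihood test among 14539 such genes, of which 0% passed a Benjamini-Hochberg adjusted p under 0.05. The other 5 were tested among the 22879 genes with at least 10 counts, of which 0.00874% passed. At an unadjusted p under 0.05 there were 2 members, Foxj1 and Gmnc, both lower. In the 2 fits 2.57% and 3.40% of genes lay under that threshold, with 1.68% and 2.08% of genes lower and 0.894% and 1.32% higher. In 3 members (Foxj1, Rfx1 and Ccno) the groups did not overlap, each with the label lower. In the first fit 3.54% of genes lay apart that way and 3.42% the other way, and in the second 4.6% and 3.7%. Neither DESeq2 nor any other alternative called a member. All 5 members under 1 FPKM were lower by sign, where 51.1% of the genes in that fit were lower and 48.9% higher. Their median log2 difference was -0.63. Among the 4 stronger members 2 were lower and 2 higher, beside 50.9% and 49.1% of genes. The median of these 4 was -0.0031, near that of all genes.

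Foxj1, the master transcription factor of motile ciliogenesis, had 339, 301 and 376 counts in WT libraries, against 253, 301 and 243 with the label. Per length and depth this was 7.47, 7.13 and 8.08 FPKM in WT libraries, against 5.53, 6.40 and 5.18 FPKM with the label. Every library with the label lay below every WT library, and Tet2 cKO replicate 2 lay nearest to WT. The log2 difference of Foxj1 was -0.41 (SE 0.114, 95% interval -0.67 to -0.16), or 0.750 times the WT level. It did not pass the edgeR test (unadjusted p = 0.00482, adjusted p = 0.9999). Leaving out each library gave -0.51 to -0.35. Foxj1 (ENSMUSG00000034227) lies on the minus strand of chromosome 11, 116330704 to 116335399 on GRCm38, and no annotated gene overlaps it.

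Ependymal markers lay in nearly the same order across libraries as Foxj1. The summed level of 10 ependymal markers, which hold no regulator of the set, was 70.7, 74.9 and 93.3 FPKM in WT libraries, against 58.9, 67.3 and 51.5 FPKM with the label. WT replicate 3 was highest and Tet2 cKO replicate 3 lowest in both quantities, and the 3 libraries with the label took the same order. Foxj1 was then set against these markers within each library, as its log2(FPKM + 1) minus the mean of theirs. This gave 0.256, 0.101 and 0.0386 in WT and 0.114, 0.234 and 0.183 under the label. The groups overlapped, and the mean difference of 0.045 was smaller than the SD in either group, 0.112 in WT and 0.0602 under the label (exact two-sided permutation p = 0.6, n = 3 each, where 0.1 is the smallest p possible). Without WT replicate 3 it was -0.0018. Several of these markers are motile cilium genes themselves, of the kind downstream of FOXJ1, so they are no independent measure of ependymal cells. A change shared by Foxj1 and such genes would not show in this difference. In bulk tissue, fewer ependymal cells and less Foxj1 RNA per cell cannot be told apart.

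The RFX genes, whose winged-helix products bind X-boxes, did not share a direction. Rfx1, a broadly expressed member, stood at 5.17, 4.83 and 5.42 FPKM in WT libraries, against 4.73, 4.82 and 4.59 FPKM with the label. The groups did not overlap, but only by the gap between 4.82 and 4.83 FPKM. The log2 difference was -0.13 (SE 0.0839, unadjusted p = 0.141 by edgeR, adjusted p = 0.9999), and -0.085 without WT replicate 3. A small part of Rfx1, 42 exonic bases or 0.653%, overlaps the antisense gene C330011M18Rik.

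Rfx2, which acts with FOXJ1 on axoneme genes, stood at 0.57, 0.51 and 0.87 FPKM in WT libraries, against 0.59, 0.53 and 0.46 FPKM with the label. WT replicate 3 alone was high, with 113 counts against 60 to 75 in the other 5 libraries. The log2 difference of -0.31 (SE 0.233, unadjusted p = 0.203 by edgeR, adjusted p = 0.9998) was -0.031 without that library.

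Rfx3, a regulator of ciliary length and of ciliary transport genes, stood at 3.12, 3.24 and 2.36 FPKM in WT libraries, against 3.09, 3.28 and 3.22 FPKM with the label. Here WT replicate 3 alone was low. The log2 difference of 0.13 (SE 0.118, unadjusted p = 0.303 by edgeR, adjusted p = 0.9999) was 0.0082 without that library. In WT replicate 3, Rfx2 and Rfx3 thus lay on opposite sides of the other libraries.

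Rfx4, which is needed for the roof of the developing forebrain and the subcommissural organ, stood at 4.39, 4.68 and 3.89 FPKM in WT libraries, against 4.93, 4.57 and 5.04 FPKM with the label. The groups overlapped through WT replicate 2 and Tet2 cKO replicate 2. The log2 difference was 0.16 (SE 0.0991, unadjusted p = 0.143 by edgeR, adjusted p = 0.9999), and 0.097 without WT replicate 3. The summed level of 10 markers of astrocytes, which also express Rfx4, was 587.3, 581.5 and 589.3 FPKM in WT libraries, against 599.8, 616.9 and 599.3 FPKM with the label. Of these 10 markers 7 were higher by sign, with a median log2 difference of 0.089, which became 0.029 with WT replicate 3 left out and 0.052 with Tet2 cKO replicate 2 left out. None passed, and their part in the level of Rfx4 was not tested. In 4 of the 10 the groups lay apart with the label higher and in 1 with it lower, beside 3.42% and 3.54% of all genes. Aqp4, the astrocyte water channel, differed by 0.57 (SE 0.151, unadjusted p = 0.00385 by edgeR, adjusted p = 0.9999) and Gja1, a gap junction gene, by 0.22 (SE 0.0728). The mean of Aqp4 was 39.7 FPKM in WT and 59.2 FPKM with the label. This gap is about as large as that between the group means of the summed markers, because the other markers moved both ways and nearly cancelled. Aldoc, for example, averaged 269.5 FPKM in WT and 255.2 FPKM with the label, and Gja1 27.1 and 31.8 FPKM. Sox9, a glial transcription factor, differed by -0.26 (SE 0.0977). The most abundant markers were nearer to 0: Slc1a2, the main glutamate transporter of astrocytes, at 0.058 and Aldoc, a glycolytic enzyme, at -0.087, both of the other sign without WT replicate 3 (-0.014 and 0.019).

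Summed over Rfx1 to Rfx4, the level was 13.3, 13.3 and 12.5 FPKM in WT libraries, against 13.3, 13.2 and 13.3 FPKM with the label, so the total hardly varied between libraries. Its composition was compared as the share of each gene. Rfx1 made up 39.6% ± 3.43 of the sum in WT and 35.5% ± 1.02 under the label (SD, n = 3 each), and Rfx4 33.1% ± 2.14 and 36.5% ± 1.67. Rfx3 made up 22.3% ± 3.02 and 24.1% ± 0.849, and Rfx2 5.03% ± 1.67 and 3.96% ± 0.485. By exact permutation, two-sided, p was 0.2 for Rfx1 and Rfx4 and 0.5 for Rfx2 and Rfx3 (adjusted p = 0.4 and 0.5 over the 4 genes), with 0.1 the smallest p possible. These shares of a sum depend on each other, so a higher share of Rfx4 goes with a lower share of another gene. Without WT replicate 3 the differences shrank to -2.24 points for Rfx1, 2.27 for Rfx4, -0.109 for Rfx2 and 0.0773 for Rfx3.

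**Figure D2:**
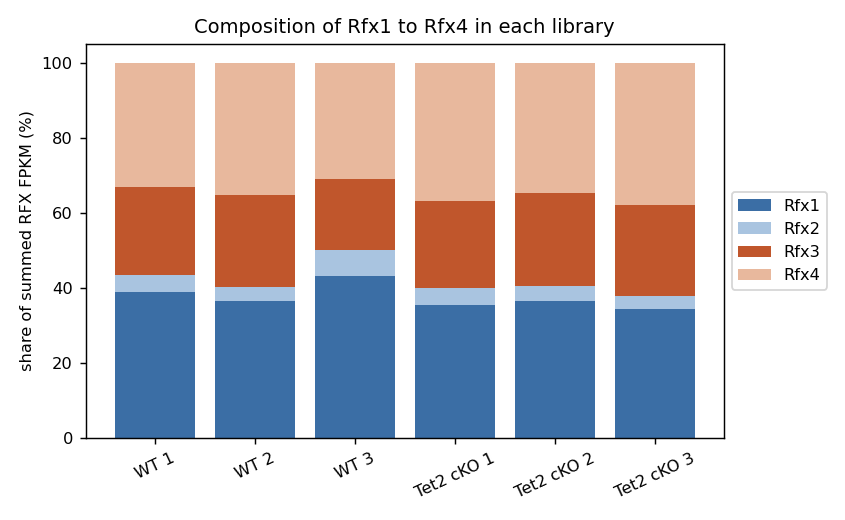
Share of Rfx1, Rfx2, Rfx3 and Rfx4 in their summed FPKM (vertical axis, percent) in each library, stacked. Rfx1 takes 43.2% in WT replicate 3, where Rfx3 takes 18.8%, and between 34.5% and 39.0% in the other libraries.

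Gmnc, which encodes GEMC1 at the head of the programme, had the lowest level relative to WT of the members with over 50 counts in a group. It had 65, 46 and 35 counts in WT libraries, against 36, 16 and 18 with the label, or 0.65, 0.50 and 0.34 FPKM against 0.36, 0.16 and 0.18 FPKM. The groups touched, since Tet2 cKO replicate 1 lay just above WT replicate 3. The log2 difference was -1.12 (SE 0.355, 95% interval -1.9 to -0.34), or 0.460 times the WT level. It did not pass the edgeR test (unadjusted p = 0.00852, adjusted p = 0.9998). Leaving out WT replicate 1 gave -0.87 with an unadjusted p of 0.0503, and leaving out Tet2 cKO replicate 1 gave -1.59; these libraries were the highest of their groups. Gmnc (ENSMUSG00000068428) lies on the minus strand of chromosome 16, 26913553 to 26991652 on GRCm38, with no overlapping gene.

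The level of Gmnc had the order of choroid plexus markers across libraries. The summed level of 16 choroid plexus markers, led by Ttr (transthyretin) and Enpp2 (autotaxin), was 1625, 968.8 and 521.4 FPKM in WT libraries, against 938.1, 232.7 and 352.5 FPKM with the label. The 6 libraries took the same order in this sum as in Gmnc: WT replicate 1, WT replicate 2, Tet2 cKO replicate 1, WT replicate 3, Tet2 cKO replicate 3 and Tet2 cKO replicate 2. This agreement was noticed after the values were seen. It is weaker than a match with 16 markers, since Ttr made up most of the sum in every library. Parts of the Gmnc order are also near ties within counting error. Gmnc had 36 counts in Tet2 cKO replicate 1 and 35 in WT replicate 3. It had 18 in Tet2 cKO replicate 3 and 16 in Tet2 cKO replicate 2. All 15 markers with at least 1 FPKM were lower by sign, beside 50.9% of all genes, at a median log2 difference of -1.08, and none passed. By edgeR 12 of them had an unadjusted p under 0.05, beside 1.68% of all genes lower at that threshold. This number was 2 without WT replicate 1 and 15 without WT replicate 3. The groups lay apart in only 2 of the 15, with the label lower, beside 3.54% of all genes. Leaving out WT replicate 1 gave a median of -0.62, and leaving out Tet2 cKO replicate 1 gave -1.67. Ttr differed by -1.09 (SE 0.543) and Enpp2 by -0.83 (SE 0.359), or by -0.60 and -0.32 with WT replicate 1 left out. Ttr stood at -2.02 without Tet2 cKO replicate 1 and at -0.70 without Tet2 cKO replicate 2. No marker of this list was at 0 in any library, and its part in the level of Gmnc was not tested.

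Trp73, which encodes the p53 relative p73 and acts just below GEMC1, had 60, 75 and 95 counts in WT libraries, against 75, 56 and 39 with the label. This was 0.63, 0.84 and 0.97 FPKM against 0.78, 0.56 and 0.39 FPKM. The groups overlapped widely, as Tet2 cKO replicate 1 lay above WT replicate 1. The log2 difference was -0.50 (SE 0.264, unadjusted p = 0.0851 by edgeR, adjusted p = 0.9998). Leaving out Tet2 cKO replicate 3 gave -0.28 and leaving out Tet2 cKO replicate 1 gave -0.76 (unadjusted p = 0.0201). Leaving out WT replicate 3 gave -0.34, and leaving out WT replicate 1 gave -0.65 (unadjusted p = 0.0408). Trp73 shares 280 exonic bases, 5.06% of its exons, with the antisense gene Trp73os, and the strand setting of the counting is not given in the sources used here. Cajal-Retzius neurons also express Trp73. Their 6 markers, led by Nhlh2 and Reln, summed to 12.3, 13.2 and 8.83 FPKM in WT libraries, against 11.8, 10.8 and 11.7 FPKM with the label, overlapping between groups. Nhlh2 made up most of this sum. Like the habenula neuron sum, Nhlh2 was lowest in WT replicate 3, at 5.1 FPKM, and next lowest in Tet2 cKO replicate 2, at 6.37 FPKM. It stood at 7.66 to 8.98 FPKM in the other libraries. The marker sum therefore cannot be read as a level of Cajal-Retzius neurons alone. Lhx1 and Lhx5 had another order. Lhx5 stood at 0.02, 0.09 and 0.34 FPKM in WT libraries and at 0.13, 0.42 and 0.08 FPKM in the others, and Lhx1 at 0.14, 0.11 and 0.35 FPKM and at 0.06, 0.29 and 0.08 FPKM. In WT both were thus highest in replicate 3, where Trp73 was highest. Among the libraries with the label both were highest in replicate 2, where Trp73 was not. Both rest on few counts, 73 for Lhx1 and 51 for Lhx5 over all libraries. Other markers of the list did not share this order in WT libraries. Reln stood at 1.39, 2.13 and 1.19 FPKM and Ndnf at 1.10, 0.77 and 0.64 FPKM, both lowest in replicate 3. Ebf3 stood at 0.68, 1.22 and 1.21 FPKM. The part of Cajal-Retzius neurons in the level of Trp73 was not tested.

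Ccno and Mcidas were at the limit of detection. Ccno had 8, 6 and 7 counts in WT libraries, against 6, 4 and 4 with the label, or 0.18, 0.15 and 0.15 FPKM against 0.13, 0.09 and 0.09 FPKM. The groups did not overlap per depth. Each count is small, however, and the exact Poisson interval of 8 counts, 3.45 to 15.8, includes all the others. Over the groups, 14 counts against 21 gave a ratio of 0.640 after scaling by library totals (95% interval 0.301 to 1.32, counting error only). The edgeR test gave -0.63 (SE 0.555, unadjusted p = 0.277, adjusted p = 0.9998).

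Mcidas had 5, 4 and 1 counts in WT libraries, against 0, 2 and 1 with the label. The exact Poisson interval of the count of 0 in Tet2 cKO replicate 1 reaches up to 3.69. Over the groups, 3 counts against 10 gave a ratio of 0.288 with an interval from 0.0510 to 1.12. The edgeR value was -1.69 (SE 1.03, unadjusted p = 0.127, adjusted p = 0.9998), and -2.52 to -1.16 when each library was left out. Both intervals, for Ccno and Mcidas, include equal levels.

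**Figure D3:**
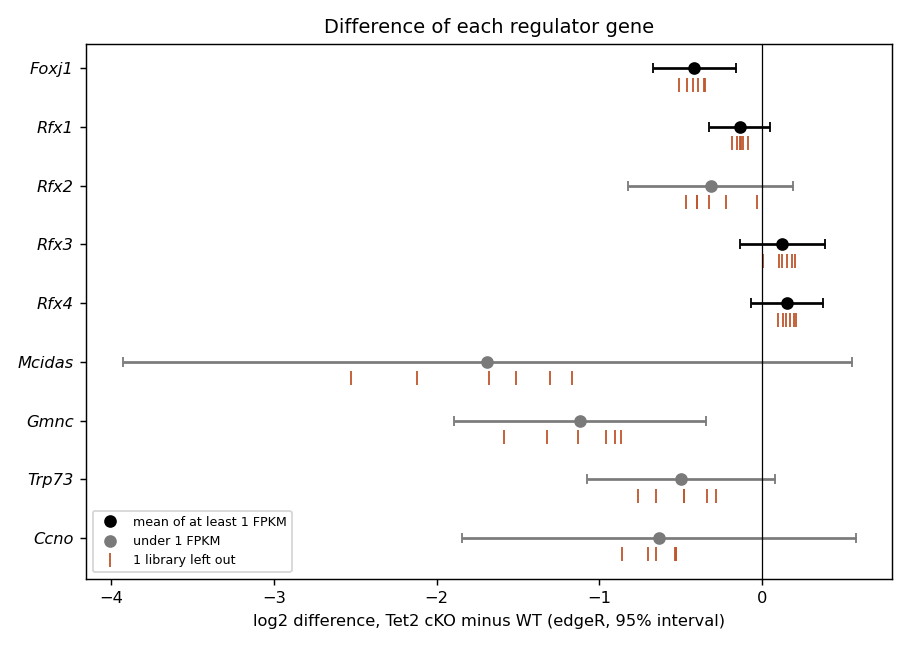
Log2 difference of each gene, Tet2 cKO minus WT, with its 95% interval (horizontal axis; black, genes tested among those with at least 1 FPKM; grey, weaker genes), and the values with each library left out in turn (orange ticks). Intervals of Foxj1 and Gmnc lie below 0 before adjustment for multiple tests; those of the other 7 genes include 0.

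The partners of GEMC1 and multicilin differed by little. Of a list of 14 partners and family relatives 9 were tested, and 6 were higher and 3 lower by sign, with a median of 0.0037 whose sign changed between settings and none passing. E2f4, whose product binds multicilin, stood at 7.10, 6.97 and 6.80 FPKM in WT libraries, against 7.37, 7.26 and 7.28 FPKM with the label, a log2 difference of 0.061 (SE 0.0901, unadjusted p = 0.513 by edgeR). Its groups did not overlap, with the label higher. Tfdp1, which encodes DP1, differed by -0.12 (SE 0.103), or by -0.026 without WT replicate 3, -0.21 without Tet2 cKO replicate 1 and -0.048 without Tet2 cKO replicate 2. Differences in this list ran from -0.12 to 0.06. Rfx6 and Foxn4 had 0 counts in all libraries.

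The Notch pathway, which restrains multiciliated fate, had 13 of 13 listed genes tested and none passing, with 9 lower by sign and a median of -0.13. Its target genes Hes5 and Hes1 had the smallest p. Hes5 stood at 4.67, 5.38 and 6.33 FPKM in WT libraries, against 3.91, 1.88 and 3.32 FPKM with the label, and the groups did not overlap. Its log2 difference was -0.86 (SE 0.249, unadjusted p = 0.00668 by edgeR, adjusted p = 0.9999), and -0.72 without WT replicate 3. Hes1 differed by -0.35 (SE 0.169). With 1 library left out the median was nearest to 0 for WT replicate 3 (-0.062), WT replicate 2 (-0.071) and Tet2 cKO replicate 2 (-0.077).

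Of 17 genes for basal body amplification 9 were tested, 7 of them lower by sign, at a median of -0.035 with none passing. Ccdc78, which localises to the deuterosome where new centrioles are made, stood at 1.75, 1.79 and 1.41 FPKM in WT libraries, against 1.03, 0.87 and 0.90 FPKM with the label. All 3 libraries with the label lay below WT, at a log2 difference of -0.83 (SE 0.214, unadjusted p = 0.00325 by edgeR, adjusted p = 0.9999). Pcm1, a centriolar satellite gene, differed by 0.21 (SE 0.157), and by 0.050 without WT replicate 3 or 0.12 without Tet2 cKO replicate 2. Deup1, which builds the deuterosome, lay under the filter at 0.29 to 0.58 FPKM in all libraries.

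Axoneme genes downstream of FOXJ1 and RFX proteins shared the direction of Foxj1. Of 34 listed motile cilium genes 24 were tested, and 23 of these were lower by sign, where 50.9% of all 14539 genes were. Their median was -0.39 and none passed. By edgeR 12 had an unadjusted p under 0.05, all lower, beside 1.68% of all genes lower at that threshold. In 10 the groups did not overlap, each with the label lower, beside 3.54% of all genes. Many of the 24 genes took a like order across libraries, so these counts do not stand for as many independent results. Over the fit that takes genes from 10 counts, all 34 were tested and 33 were lower, at a median of -0.46 (28 lower at -0.35 without WT replicate 3). Without WT replicate 3 the numbers for the 24 genes were 19 lower, 8 with an unadjusted p under 0.05 and a median of -0.28. Without Tet2 cKO replicate 3, 5 genes had such a p, and without Tet2 cKO replicate 1, 8. Cfap52, a component of the ciliary doublet microtubules, stood at 3.09, 3.35 and 3.35 FPKM in WT libraries, against 1.93, 1.83 and 2.05 FPKM with the label, a log2 difference of -0.76 (SE 0.149, unadjusted p = 0.000483 by edgeR, adjusted p = 0.9999). Ak7, an adenylate kinase of motile cilia, differed by -0.46 (SE 0.120). All 10 ependymal markers were lower too, at a median of -0.48 (-0.31 without WT replicate 3). None passed, and no marker of that list was at 0 in any library. Fam183b and Ccdc153, the highest of them, differed by -0.31 and -0.43. Fam183b stood at -0.089 without WT replicate 3, at -0.090 without Tet2 cKO replicate 3 and at -0.56 with Tet2 cKO replicate 2 left out. That these markers and cilium genes lie low has been seen before in these libraries, so it is no independent support for Foxj1.

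By contrast, the 23 genes of intraflagellar transport and the BBSome, which serve primary cilia in nearly all cells and are known targets of RFX proteins, centred on 0. There were 10 higher and 13 lower by sign, with a median of -0.013 (0.0015 without WT replicate 3) and none passing. Dync2li1, a light intermediate chain of the transport dynein, stood at 11.35, 11.31 and 11.04 FPKM in WT libraries, against 9.94, 9.79 and 9.63 FPKM with the label (log2 difference -0.21, SE 0.0866). Ift88 differed by -0.18 (SE 0.102). The difference between these 2 lists was not tested.

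**Figure D4:**
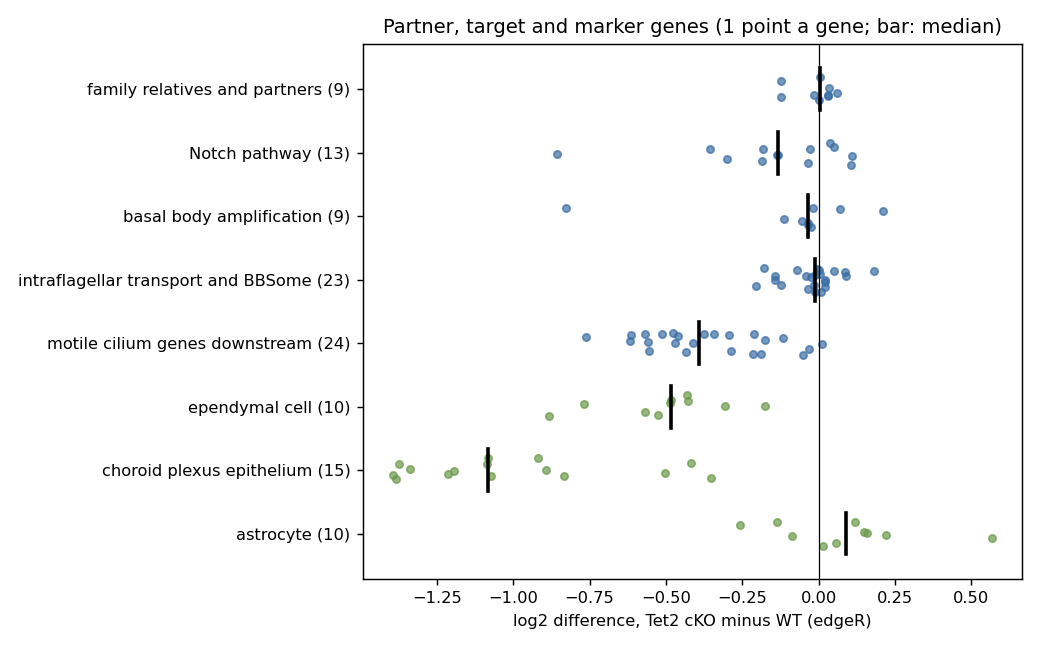
Log2 differences, Tet2 cKO minus WT (horizontal axis), of the tested genes of 5 role lists (blue) and 3 marker lists (green), 1 point a gene with the number tested in brackets and a black bar at the median. Motile cilium, ependymal and choroid plexus genes lie mostly below 0, with medians of -0.39, -0.48 and -1.08, and transport genes lie around 0.

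Foxj1 and the summed motile cilium genes were both highest in WT replicate 3 and lowest in Tet2 cKO replicate 3, as was the mitochondrial share, whose part in these levels was not tested. The cilium sum was 72.9, 77.3 and 88.6 FPKM in WT libraries, against 60.3, 70.4 and 55.4 FPKM with the label. Rfx1, Rfx2 and Trp73 had the same highest and lowest libraries, while Gmnc was highest in WT replicate 1. Markers of the subcommissural organ and pineal gland, of which Sspo (SCO-spondin) and Aanat are the highest, summed to 1.76, 3.15 and 12.7 FPKM in WT libraries, against 1.49, 8.38 and 1.9 FPKM with the label. Sspo itself overlapped between the groups, at 0.49 to 10.03 FPKM in WT and 0.48 to 6.36 FPKM with the label. Tph1, Asmt and Crx of this list were at 0 in some libraries. Sspo was highest in WT replicate 3, the library where Rfx2 and Trp73 were highest and Rfx4 was lowest. The library next in Sspo, Tet2 cKO replicate 2, lay in the lower part of the order for all 3 genes. The part of these tissues in the levels of the regulators was not tested.

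**Figure D5:**
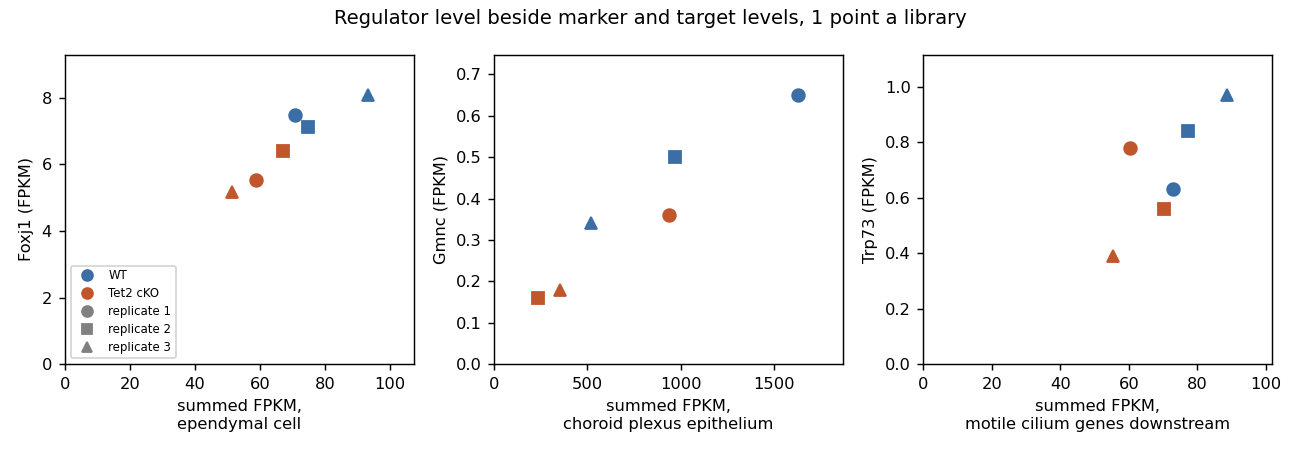
Level in FPKM (vertical axes) of Foxj1 against the summed FPKM of ependymal markers, of Gmnc against choroid plexus markers and of Trp73 against motile cilium genes (horizontal axes), 1 point a library, with colour for the group and shape for the replicate. Gmnc is highest, at 0.65 FPKM, where choroid plexus markers sum to 1625 FPKM, and lowest, at 0.16 FPKM, where they sum to 232.7 FPKM.

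The genes most like each regulator across the 6 libraries were found by the root mean square difference of log2 CPM (counts scaled to library size), each gene centred on its own mean. For Foxj1 these were Rcsd1, Slc30a3 and Cyba, at 0.0610, 0.0628 and 0.0645, where the median over 12363 genes was 0.260. None of these 3 is a cilium gene of the lists. For Rfx1 they were Mylk, Sumf2 and Ciao3 at 0.00838 to 0.0184, and for Rfx3 they were Fam169a, Scaf11 and Tgs1 at 0.0200 to 0.0284. For Rfx4 they were Fiz1, Zfp763 and Impdh1 at 0.0201 to 0.0379. These are descriptions over 6 libraries, with no test. The Rfx3 set shows the low value of WT replicate 3, at -0.366, -0.353 and -0.377 from each gene's mean, beside -0.351 for Rfx3.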

How the data were processed

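Total RNA of 6 habenula libraries was sequenced. The deposited table gives raw counts per Ensembl gene, whole numbers per the file headers and the values. It also gives FPKM, made by the authors from those counts, exonic size and library total (agreement within 0.005). The submitters' processing notes name HISAT2 2.0.1, cutadapt 1.9.1, SAMtools 0.1.19 and FastQC 0.10.1, and the build mm10. Which program counted reads, with what annotation and strand setting, is not given in the sources used here.

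The table's coordinates match GENCODE M21 (GRCm38) in only 1494 of 52083 shared genes and in 0 of the 9 members. Printed positions are therefore those of GENCODE M21, joined by identifier. Sequences are RefSeq's (GRCm38.p6).

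The test was edgeR 4.0.16 (quasi-likelihood, TMM, two-sided, no covariate) in R 4.3.3 over genes averaging 1 FPKM or more. Weaker members were tested in a second fit over genes with at least 10 counts. P-values were Benjamini-Hochberg adjusted over all genes of a fit, with a threshold of 0.05. The code was tested on simulated data. Alternatives were DESeq2 1.42.0, limma 3.58.1 (log2(FPKM + 1) or + 0.1, and voom weights), other scalings and filters, a replicate block and leaving out each library. Intervals from counts alone cover counting error only.

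The members, gene lists and tests were chosen with earlier results of these data known. The named genes are all members, the 2 genes of smallest p in each role list, the 2 highest of each marker list, and 3 genes most like each well-expressed member. Genes named outside this rule (Tet2, Deup1, Lhx1, Lhx5, Ndnf, Ebf3, Tac1, Aqp4, Gja1, Sox9, Rfx6, Foxn4, Tph1, Asmt, Crx) were chosen after their values were seen. Listed genes without their symbol in the table were matched by identifier.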

Additional observations from a re-analysis of the deposited data

How the results depend on the processing

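No member passed the threshold in any of 15 alternatives for the 4 well-expressed genes or 9 for the 5 weaker ones, and none changed direction. Over all genes the edgeR test called 0 of 14539, with 374 at an unadjusted p under 0.05. DESeq2 called 4, edgeR from 10 counts 2, edgeR from 0.1 FPKM 2, limma-voom with library weights 2, and leaving out a library 0 to 3 (3 without WT replicate 3, with 865 at an unadjusted p under 0.05). Foxj1 lay between -0.51 and -0.35 when a library was left out, and its smallest adjusted p over all alternatives was 0.362 (limma-voom with library weights). Foxj1 relative to ependymal markers lay between -0.0018 and 0.11 when a library was left out. The median of partners and relatives was -0.0013 with upper quartile scaling, -0.025 with limma-voom, and -0.028 to 0.045 when a library was left out. That of transport genes was -0.033 to 0.0015. With a library left out, Aldoc lay between -0.14 and 0.019 and Slc1a2 between -0.014 and 0.11, both turning sign without WT replicate 3. With the replicate number as a block, 0 genes were called (346 at an unadjusted p under 0.05), Foxj1 was at -0.42 and Gmnc at -1.15. The numbers gave no clear pairing of the libraries. Deviations of same-numbered libraries correlated at -0.041, 0.18 and -0.10, and those of other pairs between -0.20 and 0.19. Not every library correlated best with its own number. With so few libraries in a group, this does not settle if they were paired. Depth limits the precision of Ccno and Mcidas, at most 8 counts a library.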
